A study of Homo sapiens with 6 samples.

Results

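The TLE corepressor genes TLE1, TLE2, TLE3, TLE4 and TLE5 were described through the H3K27ac peaks that lay over their bodies or within 100 kb of them in hg38. They are 5 of the 19970 protein-coding genes annotated on chromosomes 1 to 22 and X, and 102 of the 83410 peaks of the 3 lists on those chromosomes fell in their windows. These peaks were 48 of the 35154 listed for 6T-CEM, 20 of the 16159 for Jurkat replicate 1 and 34 of the 32097 for Jurkat replicate 2. The genes were chosen by name and with earlier results of these lists known, so the peak counts and covered bases below are a description, with no test.

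Acetylation of histone H3 at lysine 27 (H3K27ac) marks promoters and enhancers in use, and its peaks were deposited for 6T-CEM (1 library) and Jurkat (2 libraries), established human lines of T-cell leukaemia. The 3 IgG samples of the series were not analysed here. GNE-987, a degrader of BET proteins, stands in the title of the series with 10 nM and 24 h in its description, yet the sample labels are silent on treatment, so treated and untreated cells could not be told apart. The peak names inside the Jurkat lists carry different prefixes, Jur in replicate 1 and Jur-NE in replicate 2, and the labels do not say what they mean. Each line is an established culture and stands for itself only. No spread can be given for 6T-CEM from its 1 library, and separate cultures are not stated for the Jurkat pair. The lists hold no read counts, and depth is unknown.

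As a check of the labelled cell type, 6 of 10 T-cell marker genes had an annotated start in the promoter table used. A peak lay within 1 kb of that start for 5 of these genes in 6T-CEM, and for all 6 in each Jurkat library. None of the B-cell, myeloid, erythroid and non-blood marker genes with a start in that table had such a peak in any of the 3 libraries. The Jurkat replicate 2 list was nearer in length to the 6T-CEM list than to that of Jurkat replicate 1. Over all genes with covered bases the log2 ratio of Jurkat replicate 1 to replicate 2 had an SD of 1.07 for windows of 100 kb.

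TLE proteins are the human counterparts of Drosophila Groucho. They bind no DNA themselves and are brought to target genes by transcription factors such as the TCF/LEF, RUNX and HES families, where they help to silence transcription, in part through histone deacetylases. TLE1, TLE2, TLE3 and TLE4 carry a terminal WD40 repeat domain that docks such factors. TLE5, earlier called AES, is a short member that lacks this domain and can act against the long members. In mouse thymocytes, TLE proteins work with TCF1 and RUNX factors in the choice between the CD4 and CD8 lineages, and TLE1 and TLE4 are known as candidate tumour suppressors of the long arm of chromosome 9 in acute myeloid leukaemia.

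The promoter at the most GC-rich annotated start of each gene is shown because peaks covered it in some libraries and not in others, except at TLE3, where they covered it in part or whole in each, and at TLE2, where they covered it in none. Each sequence runs 5′ to 3′ on the strand of the gene, from 250 bases before the start to 50 bases from it, and comes from RefSeq (GRCh38.p14, the build called hg38). Capitals mark matches on either strand to the short cores of 6 motifs, for TCF/LEF and RUNX factors, the HES N box, the E box, the CCAAT box and the GC box, whose letters are given with their counts after the sequences.
TLE1, chr9:81689498-81689797, minus strand: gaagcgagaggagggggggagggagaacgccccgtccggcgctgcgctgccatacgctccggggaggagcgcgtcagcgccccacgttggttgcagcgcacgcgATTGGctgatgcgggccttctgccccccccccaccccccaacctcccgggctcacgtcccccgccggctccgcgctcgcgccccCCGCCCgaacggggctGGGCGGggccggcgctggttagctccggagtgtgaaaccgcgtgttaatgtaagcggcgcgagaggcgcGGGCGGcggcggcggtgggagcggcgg
TLE2, inner start, chr19:3029231-3029530, minus strand: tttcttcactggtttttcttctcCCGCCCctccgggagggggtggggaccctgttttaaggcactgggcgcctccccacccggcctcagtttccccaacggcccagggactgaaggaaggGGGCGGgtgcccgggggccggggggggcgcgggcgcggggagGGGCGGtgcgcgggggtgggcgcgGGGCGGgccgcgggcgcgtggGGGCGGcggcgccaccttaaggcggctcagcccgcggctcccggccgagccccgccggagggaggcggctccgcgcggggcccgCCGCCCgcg
TLE3, middle start, chr15:70096703-70097002, minus strand: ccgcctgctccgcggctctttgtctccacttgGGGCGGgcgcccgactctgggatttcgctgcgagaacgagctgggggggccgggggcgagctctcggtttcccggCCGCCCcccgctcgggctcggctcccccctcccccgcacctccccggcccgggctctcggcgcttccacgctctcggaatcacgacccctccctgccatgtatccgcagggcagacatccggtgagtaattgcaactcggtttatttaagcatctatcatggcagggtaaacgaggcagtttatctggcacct
TLE4, inner start, chr9:79572927-79573226, plus strand: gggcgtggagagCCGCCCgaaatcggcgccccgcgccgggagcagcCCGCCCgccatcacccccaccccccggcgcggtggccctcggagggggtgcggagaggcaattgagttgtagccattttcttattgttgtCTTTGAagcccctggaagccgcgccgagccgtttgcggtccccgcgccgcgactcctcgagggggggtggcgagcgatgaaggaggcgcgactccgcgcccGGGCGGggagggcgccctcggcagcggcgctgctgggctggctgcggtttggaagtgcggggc
TLE5, inner start, chr19:3062446-3062745, minus strand: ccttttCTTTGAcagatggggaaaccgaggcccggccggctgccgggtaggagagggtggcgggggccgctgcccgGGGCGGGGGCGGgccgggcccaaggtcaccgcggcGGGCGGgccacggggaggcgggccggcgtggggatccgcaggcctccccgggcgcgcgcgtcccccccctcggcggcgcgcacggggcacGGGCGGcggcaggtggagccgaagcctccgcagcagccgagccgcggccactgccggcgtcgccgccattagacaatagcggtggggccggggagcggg

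These 5 promoters, picked for their GC content, had 76.0% GC for TLE1, 79.7% for TLE2, 66.3% for TLE3, 73.3% for TLE4 and 80.0% for TLE5, against a median of 58.7% over the 35116 promoters of the table. They held 44, 40, 29, 39 and 44 CpG dinucleotides, against a median of 14. The other 5 annotated promoters of the family had 49.3% to 59.3% GC and 7 to 22 CpG dinucleotides. GC boxes (GGGCGG) lay in 8 of the 10 promoters of the family, among them all 5 shown, and in 45.0% of all promoters of this length. A TCF/LEF core (CTTTGA) lay in 3 of the 10 annotated promoters of the family, both of TLE4 and the inner one of TLE5, and in 12.9% of all promoters. Within the family the RUNX core (TGTGGT) lay only in the innermost promoter of TLE3, with a match that began 42 bases and another that began 3 bases before the start, and in 13.1% of all promoters. A CCAAT box was found in the TLE1 promoter, 146 bases before the start, in the outermost promoter of TLE3 and in the outermost promoter of TLE4, and in 34.6% of all promoters. N boxes (CACNAG) lay in 3 of the 10 promoters of the family and in 38.0% of all promoters. The E box (CACGTG) lay in 1 of the 10, the outermost promoter of TLE3, and in 7.26% of all promoters. No 2 motif matches overlapped in the promoters shown. These matches describe letters, not occupied sites.

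At their starts, the family fell into 3 kinds. TLE1 and TLE4 had a peak within 1 kb of an annotated start in 6T-CEM and in neither Jurkat library, as had 6.18% of the 15811 protein-coding genes with a start in the table. TLE3 and TLE5 had one in all libraries, as had 28.1% of genes. TLE2 had one in no library, as had 48.8%. By library, 4 of the 5 members had a start peak in 6T-CEM, against 2 in Jurkat replicate 1 and 2 in Jurkat replicate 2, where 42.9%, 41% and 34.6% of genes had one.

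**Figure D1:**
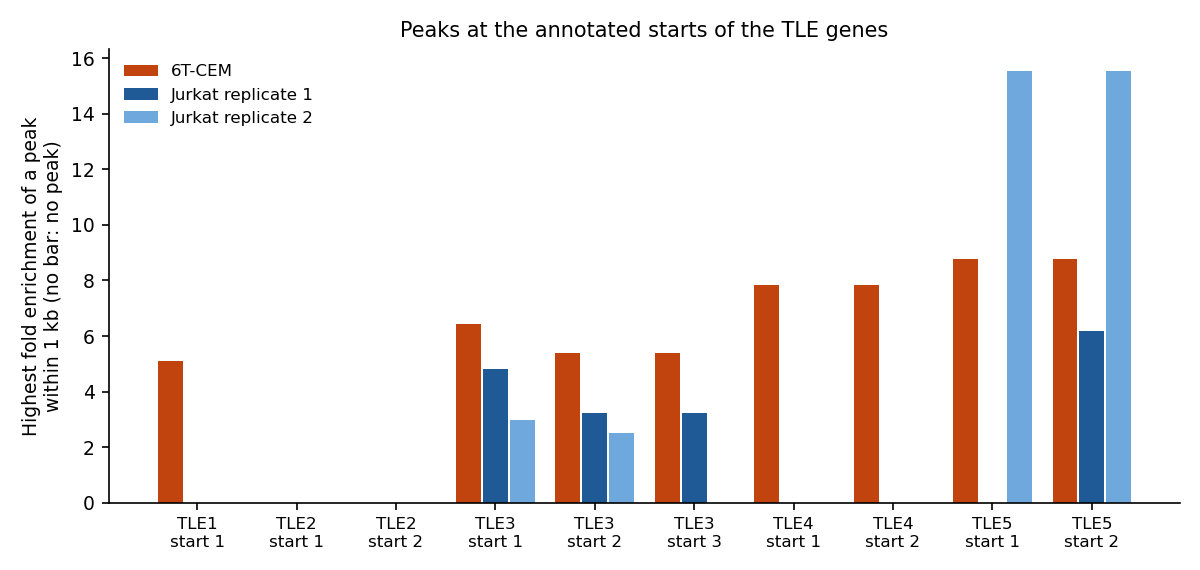
Highest fold enrichment (the authors' value per peak) among peaks within 1 kb of each annotated start, 1 bar per library, with starts numbered from the outermost inwards along the gene. TLE1 and TLE4 have bars in 6T-CEM alone, TLE2 has none, and TLE5 has its highest bar, 15.5, in Jurkat replicate 2.

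TLE1 (chromosome 9, 81583683 to 81689547, minus strand) had 16 peaks in 6T-CEM and 0 in both Jurkat libraries. They covered 14020 bp in 6T-CEM, and TLE1 was listed at 0 bp in Jurkat replicate 1 and at 0 bp in Jurkat replicate 2. TLE1 encodes a long corepressor of the family. All 16 peaks lay at the start or inside the gene body, and none overlapped another protein-coding gene. By covered bases in this window, 5.52% of genes (of 16986 that had bases in at least 1 library) had bases in 6T-CEM and 0 in both Jurkat libraries, and TLE1 stood at percentile 83.3 of all protein-coding genes in 6T-CEM.

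The TLE1 start lay under a broad peak of 2795 bp (81687204 to 81689998) with a fold of 5.10, which took in all 300 bases of the promoter shown above. Only 4.35% of the 6T-CEM peaks were wider, whereas 41.3% had a higher fold. The strongest TLE1 peak was elsewhere, at 81596876 to 81599492, with its summit 92.0 kb into the gene, a width of 2617 bp, a fold of 15.9 and a −log10 q of 39.0. Only 0.668% of the 6T-CEM peaks had a higher fold. The next by fold was a narrow peak of 568 bp with a summit 69.5 kb into the gene and a fold of 9.96, and the remaining internal peaks had folds from 4.15 to 7.68. The 100 kb on either side of the gene had no peak of their own in any library.

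**Figure D2:**
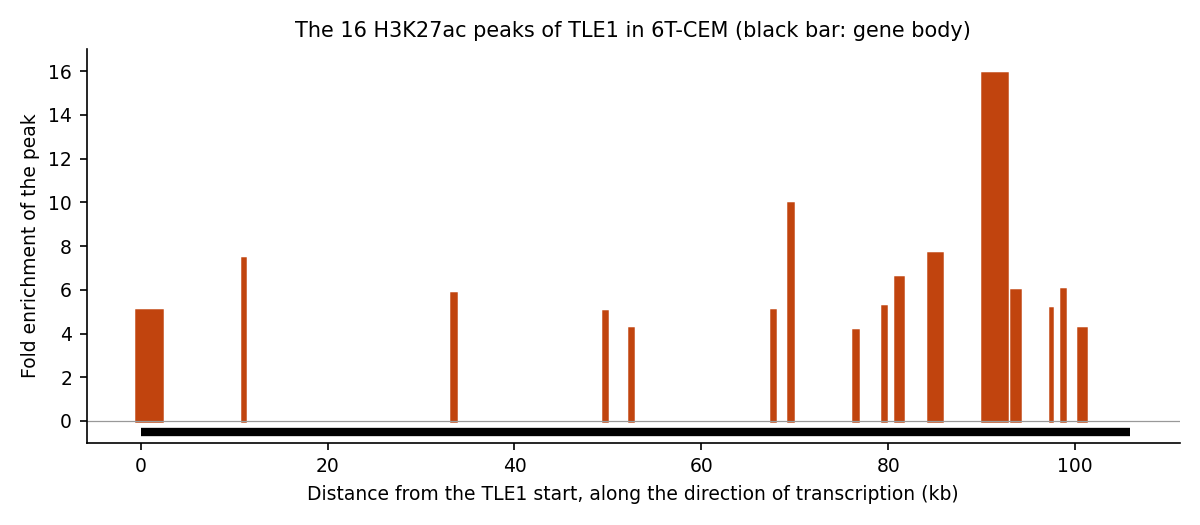
The 16 peaks of TLE1 in 6T-CEM, drawn to width along the gene (kb from the start) with the authors' fold enrichment on the vertical axis; the black bar is the gene body. The peaks crowd towards the 3′ end of the gene, where the highest reaches 15.9, while the peak at the start has a fold of 5.10.

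When peaks 12.5 kb or less apart were stitched and given a score (each peak's width multiplied by its fold, added up), 11 of the TLE1 peaks joined into a region of 33.7 kb in the 3′ part of the gene. This region ranked 469 of 13075 stitched regions in 6T-CEM, in the top 3.59%. The start peak and the peak 11.0 kb into the gene formed a second region, which ranked 2438. The other internal peaks formed regions of 3.15 kb and 0.589 kb that ranked 8087 and 8115. Most of the acetylated width of TLE1 in 6T-CEM therefore lay far from its start.

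TLE4 (chromosome 9, 79571965 to 79726882, plus strand), a long corepressor gene on the same arm as TLE1, had 5 peaks in 6T-CEM and 0 in both Jurkat libraries. They covered 3683 bp in 6T-CEM, and TLE4 was listed at 0 bp in Jurkat replicate 1 and at 0 bp in Jurkat replicate 2. Its peaks sat mainly at the start. The inner start lay under a peak of 1569 bp (79572238 to 79573806) with a fold of 7.82 and a −log10 q of 21.9, which covered all 300 bases of the promoter shown above. A second peak of 1222 bp (79570507 to 79571728) with a fold of 3.5 lay just upstream of the outermost start, so that the outermost start itself fell in the gap between them. The other 3 peaks were 294 to 304 bp wide, with folds of 5.86, 4.95 and 5.99, at 26.2 kb, 112.8 kb and 115.2 kb into the gene. TLE4 thus had the stronger peak at a start, 7.82 in fold against 5.10 for TLE1, while TLE1 had 12.8% of its body covered and TLE4 1.59%.

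The absence of Jurkat peaks at these genes reached beyond them. Around TLE1, neither Jurkat library had a peak between 81292758 and 82763923, a stretch of 1.47 Mb that held 17 peaks in 6T-CEM, of which 16 were those of TLE1. By number of 6T-CEM peaks, mostly those of TLE1 itself, it ranked 29 of 35583 stretches between Jurkat peaks, and by length it ranked 396. Around TLE4 the stretch ran over 1.57 Mb (78298236 to 79864712) and held 6 peaks in 6T-CEM, of which 5 were those of TLE4. The TLE4 stretch ranked 311 by number of 6T-CEM peaks and 363 by length. Of the 4 protein-coding genes wholly inside the first stretch and the 1 inside the second, TLE1 and TLE4 were the ones with a start peak in 6T-CEM. The part that these stretches play in the absence at TLE1 and TLE4 was not tested.

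Jurkat peaks were nevertheless present between and beside the genes. In the 1.86 Mb between TLE4 and TLE1, 6T-CEM had 3 peaks, Jurkat replicate 1 had 2 and Jurkat replicate 2 had 2. The 2 Mb before the TLE4 start held 44, 32 and 41 peaks in the same order of libraries, and the 2 Mb beyond the TLE1 start held 16, 5 and 6. Chromosome 9 as a whole held 4.19% of the 6T-CEM list, 3.84% of the Jurkat replicate 1 list and 4.43% of the Jurkat replicate 2 list.

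**Figure D3:**
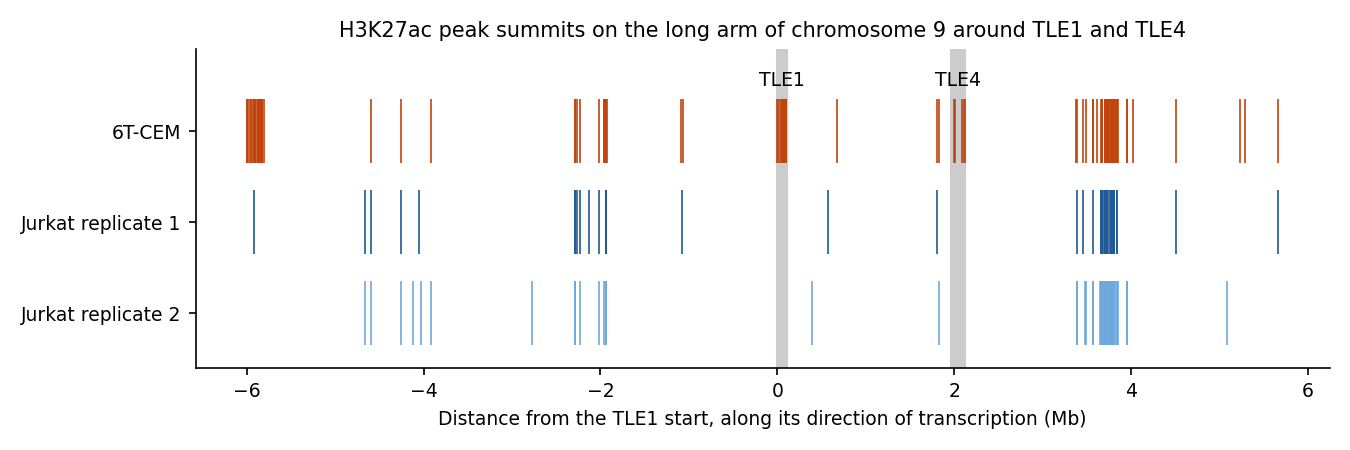
Peak summits within 6 Mb of the TLE1 start, 1 row per library, in Mb along the direction of TLE1 transcription; grey bands are the bodies of TLE1 and TLE4. Ticks lie in both bands in 6T-CEM, while the Jurkat rows are empty there and have ticks on either side.

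TLE3 (chromosome 15, 70047790 to 70097917, minus strand) had peaks at its start in every library, though those of both Jurkat libraries were weak. Their −log10 q values were 2.89 to 6.59 in Jurkat replicate 1 and 3.54 and 6.25 in Jurkat replicate 2. Those of Jurkat replicate 2 were lost when the lists were cut to equal length. The Jurkat replicate 1 list set that length and lost no peaks, so its weak peaks were not put to this limit. TLE3 encodes another of the long corepressors. Peaks covered 3051 bp of its body in 6T-CEM, against 1558 bp in Jurkat replicate 1 and 1307 bp in Jurkat replicate 2. 6T-CEM thus lay above both Jurkat libraries, as did 47.2% of the 11442 genes with covered bases in their body. The centred log2 ratio of 6T-CEM to the Jurkat mean over the body was 0.67, and that of Jurkat replicate 1 to replicate 2 was 0.19.

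In 6T-CEM a single TLE3 peak of 3051 bp with a fold of 5.37 (70094855 to 70097905) held the middle start and filled the space between the outer ones, ending 12 bp from the outermost and 66 bp from the innermost. In Jurkat the same span held smaller pieces: 3 peaks of 297, 688 and 573 bp with folds of 3.21, 3.21 and 3.01 in replicate 1, and 1 peak of 822 bp with a fold of 2.51 in replicate 2. These were weak peaks by the measure of their own lists, since the 3 of Jurkat replicate 1 stood at percentiles 2.10 to 4.04 of its folds, and 97.0% of the Jurkat replicate 2 peaks had a higher fold than its own. The promoter at the middle start, shown above, was covered over all 300 bases in 6T-CEM, over 237 bases in Jurkat replicate 1 and over 188 bases in Jurkat replicate 2. A second peak just upstream of the outermost start was found in all libraries, with folds of 6.44 in 6T-CEM, against 4.81 in Jurkat replicate 1 and 2.99 in Jurkat replicate 2. Its 6T-CEM summit lay 35 bp from that of Jurkat replicate 1 and 147 bp from that of Jurkat replicate 2.

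Further from TLE3 the order of the libraries changed. A site upstream of the gene (70140071 to 70142077) carried a peak of 315 bp with a fold of 3.25 in 6T-CEM and one of 2007 bp with a fold of 5.02 in Jurkat replicate 2, and had none in Jurkat replicate 1. With 100 kb on either side, TLE3 had 4250 bp in 6T-CEM, 2401 bp in Jurkat replicate 1 and 5739 bp in Jurkat replicate 2. The 6T-CEM value lay between the Jurkat values. The centred log2 ratio was −0.34 for this window, though it was 0.15 within 25 kb and 0.13 by width times fold, and that of Jurkat replicate 1 to replicate 2 was −0.86. Apart from the start region, the TLE3 body held 1 peak, of 485 bp in Jurkat replicate 2.

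TLE5 (chromosome 19, 3052910 to 3062966, minus strand), the short member, had the highest share of its body covered in each library. Peaks covered 1753 bp, or 17.4%, in 6T-CEM, against 523 bp, or 5.20%, in Jurkat replicate 1 and 3727 bp, or 37.1%, in Jurkat replicate 2. The 6T-CEM value lay between the Jurkat values, so the Jurkat libraries necessarily stood further apart than either stood from 6T-CEM on the bp scale. The centred log2 ratio of 6T-CEM to the Jurkat mean over the body was −0.42, and that of Jurkat replicate 1 to replicate 2 was −2.05.

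The summit inside TLE5 was nearly the same base in 6T-CEM, at 3061522, and in Jurkat replicate 1, at 3061523. In Jurkat replicate 2 it lay at 3061613, 91 bp from that of 6T-CEM. The peaks around it differed in reach. In 6T-CEM a peak of 870 bp with a fold of 5.58 held this summit, and a separate peak of 1283 bp with a fold of 8.76 lay over both annotated starts. In Jurkat replicate 1 a peak of 523 bp with a fold of 6.20 ended 733 bp inside the inner start and covered 0 bases of the promoter shown above. In Jurkat replicate 2 a single peak of 2245 bp with a fold of 15.5 and a −log10 q of 40.5 spanned the summit and both starts. Only 0.240% of the Jurkat replicate 2 peaks had a higher fold. That library alone had 5 further peaks in the TLE5 body, 290 to 486 bp wide with folds from 3.33 to 5.46. They lay 4.13 to 7.97 kb from the outermost start.

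TLE2 (chromosome 19, 2997644 to 3047635, minus strand), a long corepressor gene that lies beside TLE5, was the member without a marked start. The peak nearest to its inner, GC-rich start was 5.66 kb away in 6T-CEM, 5.67 kb in Jurkat replicate 1 and 6.13 kb in Jurkat replicate 2. Its body had 751 bp under peaks in 6T-CEM, against 1112 bp in Jurkat replicate 1 and 1220 bp in Jurkat replicate 2. 6T-CEM lay below both Jurkat libraries, as did 16.3% of genes with covered bases in their body. The centred log2 ratio over the body was −0.62, and that of Jurkat replicate 1 to replicate 2 was −0.09.

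Each library had a peak in the same stretch between the annotated starts of TLE2, but not on the same bases. 6T-CEM had a peak of 457 bp there with a fold of 3.91, Jurkat replicate 1 had peaks of 711 bp and 401 bp with folds of 4.85 and 3.44, and Jurkat replicate 2 had a peak of 1220 bp with a fold of 4.67. The summits of 6T-CEM and of the wider Jurkat replicate 1 peak were 5 bp apart. The 6T-CEM peak ended at 3035395, before the Jurkat replicate 2 peak began at 3035412, and their summits were at 3035112 and 3036506. 6T-CEM alone had a second, 294 bp peak in the TLE2 body, 33.1 kb from the outermost start, with a fold of 3.30.

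**Figure D4:**
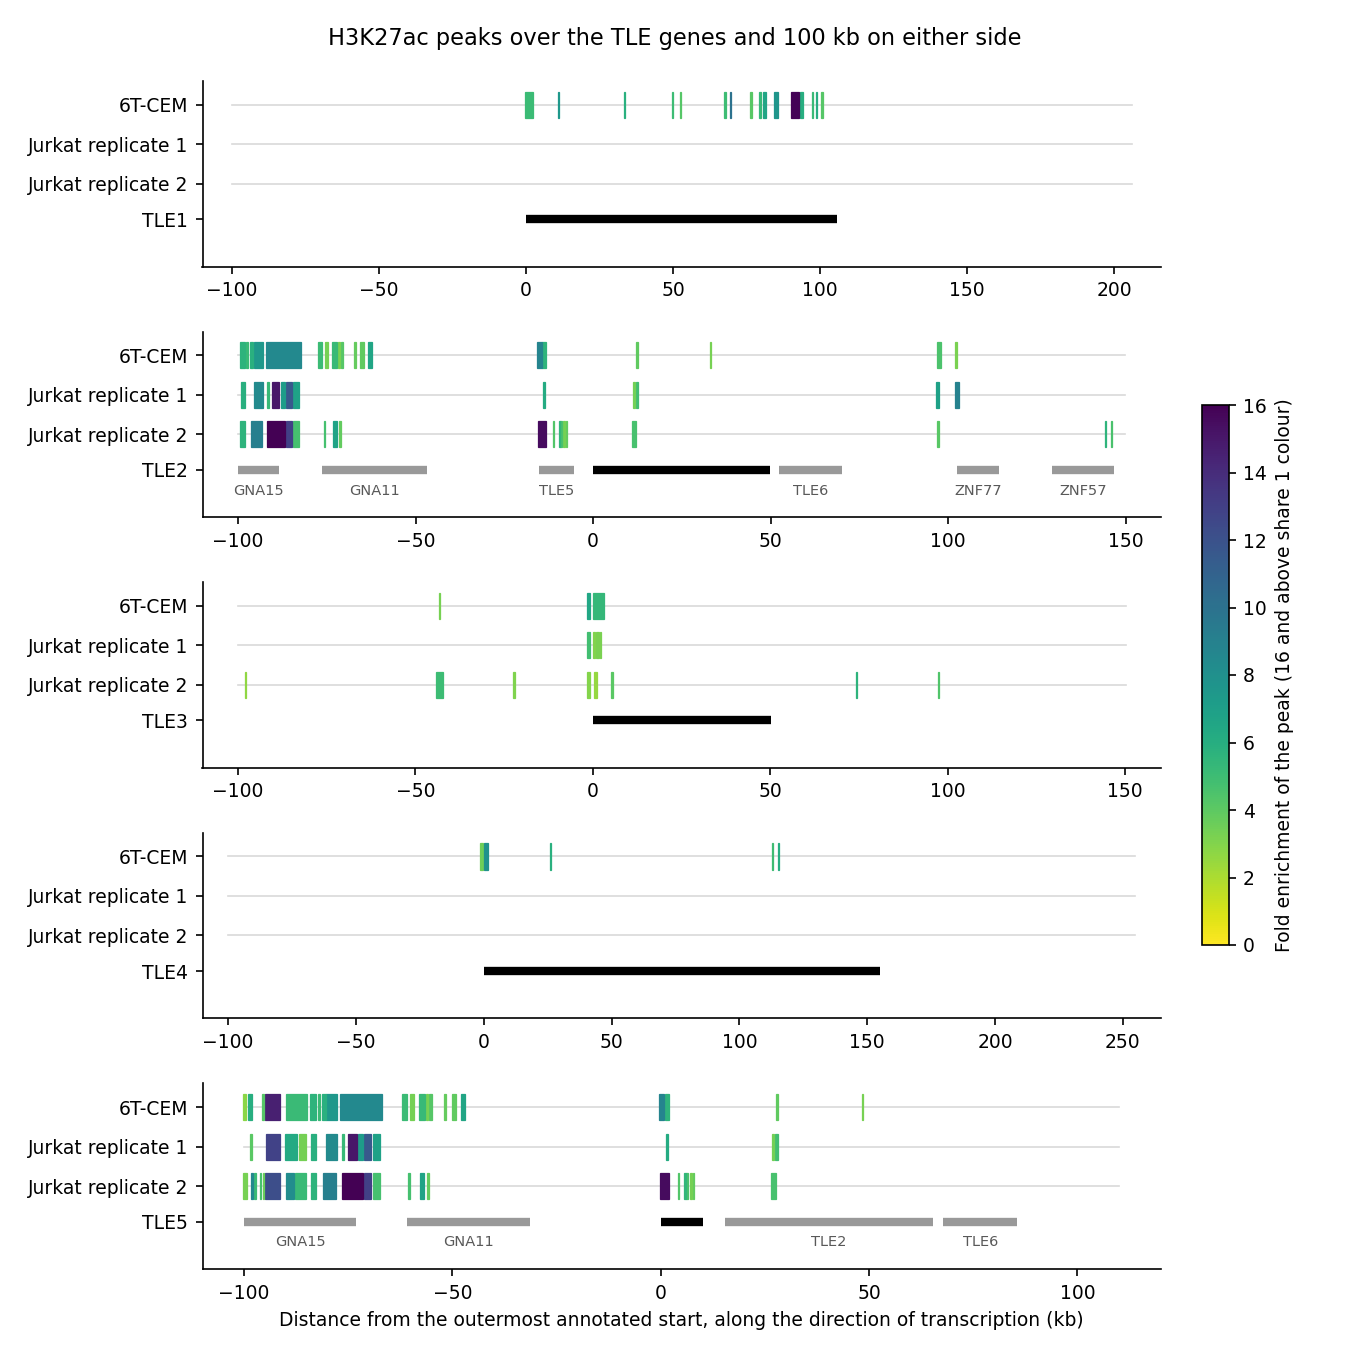
Peaks over each TLE gene and 100 kb on either side, in kb from the outermost start along the direction of transcription; black bars are the members, grey bars other protein-coding genes, and colour gives the authors' fold enrichment. The Jurkat rows are empty at TLE1 and TLE4, and at TLE2 and TLE5 the densest peaks lie over GNA15.

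Most peaks in the windows of TLE2 and TLE5, which overlap, belonged to the ground of other genes. Of the bases of all peaks that touched either window, 88.0% in 6T-CEM, against 84.3% in Jurkat replicate 1 and 80.4% in Jurkat replicate 2, lay beyond TLE5 on the side of GNA11 and GNA15. Peaks over GNA15, a G protein alpha subunit gene of blood cells, made up 69.2%, 64.1% and 63.4% of these bases in the same order. Each was counted whole, also a 6T-CEM peak of 9954 bp that began at 3129898, ahead of the gene at 3136033. Between GNA11 and GNA15, separate peaks held a further 20.2% for Jurkat replicate 1 and 10.7% for replicate 2, against 0 for 6T-CEM. Peak bases inside the GNA15 body were 19962 of 37592, 14370 of 22494 and 18849 of 32298 bp. By that count the 6T-CEM share was the lowest, not the highest. GNA11, a related gene, had 6024 bp of its body covered in 6T-CEM, 0 bp in Jurkat replicate 1 and 2049 bp in Jurkat replicate 2. Peaks over TLE2 and TLE5 or within 1 kb of their starts made up 7.73% in 6T-CEM, against 7.27% in Jurkat replicate 1 and 16.2% in Jurkat replicate 2. TLE6, a relative known for its role in the oocyte, lies on the other side of TLE2 and had 0 bp in its body in each library. The zinc finger gene ZNF77 had a peak within 1 kb of a start in 6T-CEM and Jurkat replicate 1, and ZNF57 in Jurkat replicate 2.

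With these neighbours included, the windows of 100 kb gave another picture than the gene bodies. TLE2 had 26867 bp in 6T-CEM, 14377 bp in Jurkat replicate 1 and 21572 bp in Jurkat replicate 2, and TLE5 had 35627, 20603 and 30843 bp. Their centred log2 ratios were 0.17 and 0.07, and those of Jurkat replicate 1 to replicate 2 were −0.32 and −0.33. In these windows 4 of the 5 members, all but TLE3, exceeded both Jurkat libraries in 6T-CEM, where 54% of genes with bases did, and 0 lay below both, where 14.3% of genes did. In the bodies 3 lay above both, TLE1, TLE3 and TLE4, and 1 below both, TLE2. TLE1 and TLE4 had bases in their body in 6T-CEM alone, as had 12.4% of genes. Within 25 kb, which leaves GNA11 and GNA15 out, TLE2 had 2904 bp in 6T-CEM, 1635 bp in Jurkat replicate 1 and 5223 bp in Jurkat replicate 2, and TLE5 had 2610, 1635 and 5223 bp, so 6T-CEM lay between the Jurkat libraries for both.

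**Figure D5:**
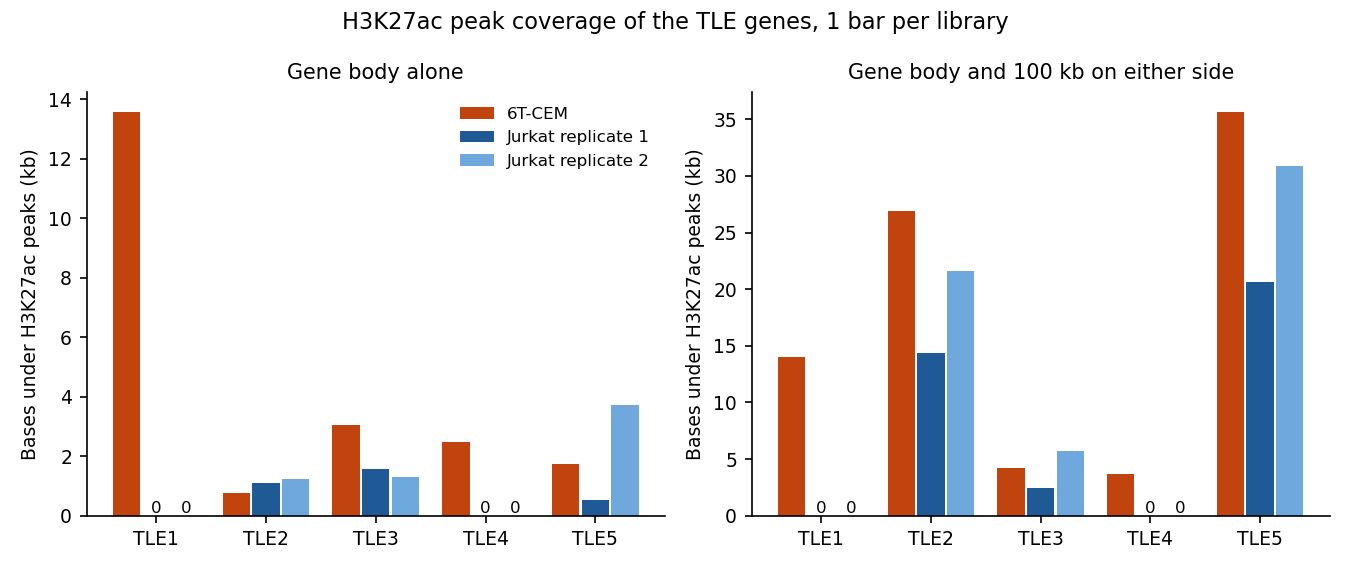
Bases under H3K27ac peaks (kb) for each TLE gene, 1 bar per library, over the gene body alone (left) and with 100 kb on either side (right); a 0 marks a library with no peak. TLE1 and TLE4 have bars in 6T-CEM alone in both panels. At TLE2 the 6T-CEM bar changes from lowest to highest among the libraries when the flanks, which hold GNA15, are added.

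Per length of the gene body, the members ranked TLE5, TLE1, TLE3, TLE4 and TLE2 in 6T-CEM, with 17.4%, 12.8%, 6.09%, 1.59% and 1.5% of bases covered. In both Jurkat libraries the order was TLE5, TLE3 and TLE2, with TLE1 and TLE4 at 0. TLE3 had 3.11% and 2.61% covered in Jurkat replicates 1 and 2, and TLE2 had 2.22% and 2.44%. The values of these genes did not overlap, but the nearest of them, 2.61% and 2.44%, were closer than the replicates of either gene, so their order is not beyond the Jurkat spread. TLE4 and TLE2 were close to each other in 6T-CEM, where no spread is known.

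By regions, the peaks of all libraries in the windows of the family joined into 60 union regions, counted once where windows overlap. Of these, 28 (46.7%) held a peak of 6T-CEM only, against 32.2% of the 49528 regions of the series. TLE1 contributed 16 of the 28, TLE4 contributed 5, and the windows of TLE2 and TLE5 gave the other 7. All libraries shared 11 regions (18.3%), against 17.4% of the series, of which 2 lay at the TLE3 start, 1 at the TLE5 start and 1 inside TLE2. The region inside TLE2 was joined through Jurkat replicate 1, since the 6T-CEM and Jurkat replicate 2 peaks there shared no base. Another 15 regions held a peak of 1 Jurkat library only, a share of 25% against 29.3%, and 6 held peaks of 6T-CEM and 1 Jurkat library, a share of 10% against 17.9%. Jurkat regions found in both libraries and not in 6T-CEM numbered 0, where they made up 3.2% of the series. With an overlap of 50% of the shorter peak required, regions of all libraries numbered 10 and those of both Jurkat libraries alone 1.

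Genes that can bring TLE proteins to DNA were read in the same windows of 100 kb. In 6T-CEM, 11 of 17 such genes had more covered bases than either Jurkat library and 3 had fewer than both, where 54% and 14.3% of genes with bases did. Their median centred log2 ratio was 0.14 (all genes are centred on 0), and that of Jurkat replicate 1 to replicate 2 was −0.14. HES1 entered these medians through the 500 bp added, though its own ratio is not given. LEF1, a T-cell partner of beta-catenin and TLE proteins, had 27517 bp in 6T-CEM, against 12654 bp in Jurkat replicate 1 and 12520 bp in Jurkat replicate 2. TCF7, which encodes TCF1, had 73809 bp in 6T-CEM, 14815 bp in Jurkat replicate 1 and 58254 bp in Jurkat replicate 2, and its Jurkat values lay further apart than 6T-CEM and the nearer of them. HHEX, a homeobox repressor gene of blood progenitors, had 8518, 1395 and 1975 bp in the same order of libraries. HES1, a NOTCH-induced repressor gene whose product recruits TLE proteins through a short motif at its end, had 17834 bp in 6T-CEM and a listed 0 bp in both Jurkat libraries, the layout also seen at TLE1 and TLE4.

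The RUNX genes did not share a direction. RUNX1 had 67392 bp in 6T-CEM, 57649 bp in Jurkat replicate 1 and 41103 bp in Jurkat replicate 2. RUNX2 had 2922 bp in 6T-CEM, below the 6424 bp and 3429 bp of the Jurkat libraries. RUNX3, the factor of cytotoxic T cells, had 15355 bp in 6T-CEM, between 1833 bp in Jurkat replicate 1 and 25273 bp in Jurkat replicate 2. The other genes below both Jurkat libraries were HES7 and PAX5, the B-lineage factor gene, which had 0 bp in 6T-CEM, 2154 bp in Jurkat replicate 1 and 1357 bp in Jurkat replicate 2, without a peak within 1 kb of its starts in any library. PAX5 was the 1 gene of the 17 with bases in both Jurkat libraries and 0 in 6T-CEM, a layout of 2.37% of genes. Start peaks were found at 7 of the 17 genes in 6T-CEM, at 5 in Jurkat replicate 1 and at 6 in Jurkat replicate 2, where 42.9%, 41% and 34.6% of all genes with a start had one.

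Of the 5 WNT coactivator genes listed, 4 had bases in at least 1 library. Among these 4, 6T-CEM exceeded both Jurkat libraries at 2 and was below both at 0, where 54% and 14.3% of genes with bases were of these kinds. Their median centred log2 ratio was 0.34. BCL9 had 8037 bp in 6T-CEM, against 1631 bp in Jurkat replicate 1 and 1381 bp in Jurkat replicate 2, and PYGO2 had 32102, 11285 and 15409 bp. CTNNB1, the beta-catenin gene, had 0, 578 and 0 bp, and PYGO1 had 0 bp in every library. Of 10 other corepressor and deacetylase genes, 4 lay above both and 1 below both, with a median of −0.12. HDAC3, a histone deacetylase gene, had 6490 bp in 6T-CEM, 15805 bp in Jurkat replicate 1 and 7373 bp in Jurkat replicate 2. HDAC1, a deacetylase that Groucho proteins recruit, had 22675, 17293 and 23573 bp. Of the relatives outside the set, TLE6 had 5675, 4733 and 7457 bp in its window, which overlaps that of TLE2, and TLE7 had 0, 602 and 292 bp.

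The genes most like each member by Euclidean distance in log2 covered bases over the 3 libraries were also read, with the caution that 3 libraries define a pattern poorly. For TLE1 they were GRAMD1B (13478, 0 and 0 bp in 6T-CEM and the Jurkat libraries, distance 0.055) and LOC102724877 (15337, 0 and 0 bp, distance 0.13). For TLE4 they were MGAT5 and SPICE1, with 3681 and 3680 bp in 6T-CEM and none in Jurkat. TLE3 was nearest to PRPSAP2 and BBS4, TLE2 to HDGF and ATP2A1, and TLE5 to CHD4 and NCAPD2, at distances of 0.077 to 0.12. Since most covered bases in the windows of TLE2 and TLE5 lie beyond TLE5 on the side of GNA11 and GNA15, their nearest genes describe that ground.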

How the data were processed

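H3K27ac peak lists of 6T-CEM (1 library) and Jurkat (2 libraries) were read, 1 list per library. The submitters' processing notes name hg38, MACS2 2.2.7 and Bowtie2 2.2.5. Their options, and whether IgG served as control, are not given in the sources used here. A CUT&Tag assay is named in the series description, while the labels' protocol speaks of sonication. The authors' deposited lists hold for every peak its enrichment as a ratio (fold), its p and q on the −log10 scale, the summit offset in bases and an integer score, which was not used. The deposited values were not recalculated. The lists hold no read counts, so depth is unknown and no interval was computed.

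Only the autosomes and X were read. Bases under peaks were summed over the gene body, alone or with 100 kb on either side, 500 bp were added, and log2 ratios of 6T-CEM to the Jurkat mean were centred on the median of genes with bases (0.40 before centring for 100 kb, 0.20 for bodies). No ratio was given where both Jurkat libraries were at 0, though such genes entered the medians through the 500 bp added. Gene positions, starts and promoters came from RefSeq GRCh38.p14; starts were found for 15811 protein-coding genes. Peaks sharing 1 base joined into union regions. No test was run. The members and lists were chosen with earlier results of these data known. Named genes were the members, the listed pathway genes, the protein-coding neighbours within 100 kb and, per member, the 2 genes nearest in log2 covered bases; the values of 1 listed gene are not reported here. Stitching and the motifs were chosen after the data were seen. The 15 member values were recounted base by base without a difference (0), and the scripts were tested on simulated data. Alternatives were a −log10 q of 5 or more, lists of equal length (16159 peaks), windows of 25 kb or the body, 2000 bp added, width times fold, an overlap of 50%, joining within 1 kb, starts within 2.5 kb, and each Jurkat library left out. Python 3.11.15, NumPy 2.4.6, pandas 2.3.3 and matplotlib 3.10.9 were used.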

Additional observations from a re-analysis of the deposited data

How the results depend on the processing

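The alternatives run add no peaks and widen no window, so the 0 bp of TLE1 and TLE4 in Jurkat could not change. Their 6T-CEM bases were 12747 bp for TLE1 with a −log10 q of 5 or more, 10097 and 1569 bp for TLE1 and TLE4 at equal list length, and 13569 and 2461 bp in the bodies; width times fold and 2000 bp added give no comparable value here. The centred log2 ratio of TLE2 turned to −0.62 in the body, and was −0.52 within 25 kb and −0.39 by width times fold; that of TLE5 was −0.42, −0.65 and −0.31. That of TLE3, −0.34 in the windows of 100 kb, changed sign under most alternatives: 0.27 with the q limit, 0.54 at equal length, 0.15 within 25 kb, 0.67 in the body and 0.13 by width times fold, but −0.22 with 2000 bp added. Leaving out a Jurkat library gave −0.01 to 0.25 for TLE2, −0.72 to 0.08 for TLE3 and −0.12 to 0.15 for TLE5, and 4 or 5 members above Jurkat.

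Union regions of 6T-CEM only, of all libraries and of both Jurkat libraries only numbered 11, 7 and 2 at equal length; the last was 1 at 50% overlap, and regions of all libraries were 6 when joined within 1 kb. Without Jurkat replicate 1 there were 30 regions of 6T-CEM only, 15 shared with Jurkat replicate 2 and 16 of Jurkat replicate 2 only. Without Jurkat replicate 2 there were 36, 12 and 1 in the same order, set against Jurkat replicate 1. Regions found in both Jurkat libraries cannot be counted in these settings. TLE genes with a start peak in Jurkat replicate 2 numbered 1 at equal length, without TLE3. The Jurkat replicate 1 list is not shortened in that setting. Recruiting factors above both Jurkat libraries were 6 at equal length; leaving out a Jurkat library gave 11 to 14 above, 3 to 6 below and medians of −0.012 to 0.61. WNT coactivators below both were 1 at equal length, and 1 was below the remaining library when either Jurkat library was left out. Their medians were 0.096 at equal length, 0.044 within 25 kb and 0.60 to 0.71 without a library. Other corepressors below both were 4 at equal length and 2 within 25 kb. With a Jurkat library left out, 3 to 4 were below the remaining one and 6 to 7 above it, with medians of −0.13 to −0.0035. In 6T-CEM, percentiles at equal length were 84.4 (TLE1), 67.7 (TLE3) and 49.3 (TLE4), and with the q limit 60.7 (TLE3), 58.9 (TLE4) and 97.5 (TLE5); these percentile alternatives were chosen after seeing the data. The cause of these moves was not tested, except that shorter lists and narrower windows hold fewer peaks. No paired analysis was possible because 6T-CEM has 1 H3K27ac library and no test was run. Unknown depth limits every statement of absence: no peak says only that none passed the caller's threshold.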
